A study of Homo sapiens with 4 samples.

Results

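The genes described here encode a small proteolytic system at the cell surface: *PLAU* and *PLAT*, the urokinase-type and tissue-type plasminogen activators, *PLAUR*, the urokinase receptor, and *SERPINE2* and *SERPINB2*, which are protease inhibitors. They were taken by gene name from the authors' table, which lists 58735 genes, and all 5 were found. The samples are human lung squamous cell carcinoma cells in culture, per the labels, and the library names put 2 of them at 30 Gy and 2 at 0 Gy, where Gy (gray) measures absorbed radiation. The submitters mention SK-MES-1 cells and SK-MES-1-RR, a subline resistant to radiotherapy, but the labels do not tie a library to either line, and they give neither the fractionation nor the time after irradiation. No label says that replicates were separate cultures, so the tests measure only the spread between these libraries, which may be technical.

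Both activators are serine proteases that cut plasminogen, an inactive precursor, into plasmin, which digests fibrin and matrix proteins and can activate other proteases. Urokinase works bound to its receptor, a glycolipid-anchored protein, so that plasmin forms next to the membrane, while tissue-type activator is best known for dissolving fibrin clots. SERPINE2 (protease nexin-1) blocks thrombin, plasmin and both activators outside the cell, and SERPINB2 (plasminogen activator inhibitor type 2) blocks urokinase and is largely kept inside the cell. In carcinomas, urokinase and its receptor are studied for their part in invasion.

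All 4 libraries were of like depth, between 15920861 and 17261121 reads recovered from the FPKM values (fragments per kilobase of gene length, scaled to library size). Of 6 markers of squamous carcinoma, the keratin genes KRT5 and KRT6A and the desmosomal cadherin gene DSG3 had 0 reads in every library, which allows at most 0.0644 FPKM (3 reads). KRT14 had 0 and 4 reads at 30 Gy and 2 and 0 reads at 0 Gy. SOX2 was at 0.548 and 0.475 FPKM at 30 Gy and 0.252 and 0.0936 FPKM at 0 Gy, and TP63 was at 3.34 and 3.19 FPKM at 30 Gy and 3.95 and 4.14 FPKM at 0 Gy. The 4 markers of epithelium in general summed to 181 and 167 FPKM at 30 Gy, against 248 and 237 FPKM at 0 Gy. Of these KRT19 fell to 88.4 ± 6.18 FPKM at 30 Gy, against 162 ± 4.27 FPKM at 0 Gy (SD, n = 2 each; limma adjusted p = 0.00424), and EPCAM, KRT8 and KRT18 did not pass. Markers of leukocytes and of endothelium summed to at most 0.160 and 0.0972 FPKM in any library. The 3 fibroblast markers summed to 77.7 and 71.1 FPKM at 30 Gy, against 62.8 and 63.1 FPKM at 0 Gy. COL1A1 made up nearly all of that sum, COL1A2 had at most 1 read, and neither COL1A1 nor PDGFRB passed the test. What part these markers have in the results below was not tested. In bulk RNA, fewer cells expressing a gene and less RNA per cell cannot be told apart.

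At 30 Gy both activators, the receptor and *SERPINB2* were higher than at 0 Gy, and *SERPINE2* did not pass the test. The rises in mean FPKM were 3.04-fold for *PLAT*, 2.87-fold for *SERPINB2*, 2.25-fold for *PLAUR* and 2.05-fold for *PLAU*. The test was limma's moderated test on log2(FPKM + 1) over the 13379 genes with at least 1 FPKM in at least 2 libraries, with Benjamini-Hochberg adjustment and a threshold of 0.05. Of the 5 genes, all of which were tested, 4 rose and 0 fell. Of all tested genes 10.8% rose and 9.06% fell. The median log2 change of the 5 was 1.03, beside a median of -0.00068 over all tested genes. The 5 were chosen with earlier results of these data known and are no independent sample.

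**Figure D1:**
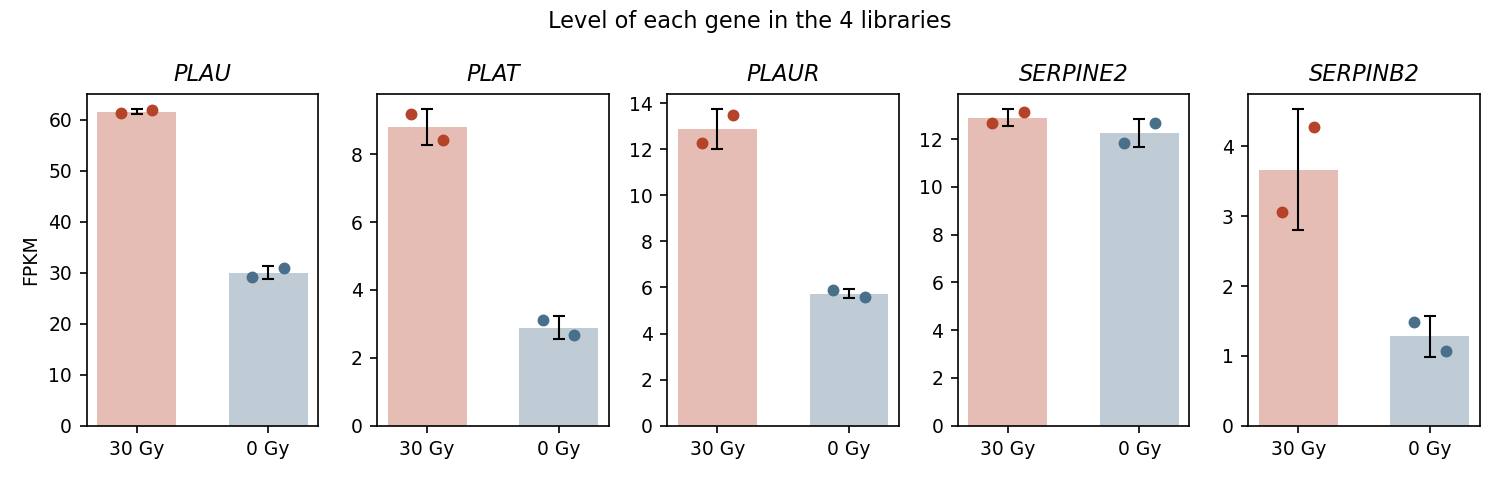
Level in FPKM of each gene in the 2 libraries at 30 Gy (left in each panel) and the 2 at 0 Gy (right). Bars are means from an axis starting at 0, error bars are the SD and points are libraries; the 30 Gy points lie above the 0 Gy points for PLAU, PLAT, PLAUR and SERPINB2 and overlap them for SERPINE2.

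*PLAU* (ENSG00000122861), urokinase, lies on the plus strand at chr10:73909177-73917497 (hg38). It stood at 61.3 and 61.9 FPKM in the 30 Gy libraries, against 29.1 and 31.0 FPKM in the 0 Gy libraries. The groups did not overlap, and the gap between them was many times the difference between replicates. The means were 61.6 ± 0.438 FPKM at 30 Gy and 30.04 ± 1.34 FPKM at 0 Gy (SD, n = 2 each), resting on 2888 and 2907 reads at 30 Gy and 1494 and 1554 reads at 0 Gy. The log2 change was 1.01 ± 0.06 (SE; limma adjusted p = 0.00229). *PLAU* was the most abundant of the 5 per unit of length in every library, and by level it ranked 580 and 571 among the tested genes at 30 Gy, against 1481 and 1332 at 0 Gy.

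*PLAT* (ENSG00000104368), tissue-type activator, lies on the minus strand at chr8:42175233-42207724. Its FPKM was 9.17 and 8.43 at 30 Gy, against 3.13 and 2.66 at 0 Gy. Both 30 Gy libraries stood above both 0 Gy libraries. The means were 8.80 ± 0.521 FPKM at 30 Gy and 2.89 ± 0.331 FPKM at 0 Gy (SD, n = 2 each), from 969 and 888 reads at 30 Gy and 360 and 299 reads at 0 Gy. Its log2 change of 1.33 ± 0.10 (SE; limma adjusted p = 0.00337) was the largest of the 5 and ranked 102 among the 13379 tested genes, counted from the largest rise.

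*PLAUR* (ENSG00000011422), the receptor, lies on the minus strand at chr19:43646095-43670547. It had 12.3 and 13.5 FPKM at 30 Gy, against 5.88 and 5.58 FPKM at 0 Gy. Here too the groups were apart, by more than the spread within either. The means were 12.9 ± 0.858 FPKM at 30 Gy and 5.73 ± 0.209 FPKM at 0 Gy (SD, n = 2 each), with 873 and 956 reads at 30 Gy and 456 and 423 reads at 0 Gy. The log2 change was 1.04 ± 0.08 (SE; limma adjusted p = 0.00362). The ratio of *PLAU* to *PLAUR* FPKM was 4.998 and 4.59 at 30 Gy, against 4.95 and 5.55 at 0 Gy, and the groups overlapped in it.

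*SERPINB2* (ENSG00000197632), the inhibitor that rose, lies on the plus strand at chr18:63871692-63903890. It was the least abundant of the 5, with 3.05 and 4.28 FPKM at 30 Gy and 1.48 and 1.07 FPKM at 0 Gy. The lower 30 Gy library still had more than the higher 0 Gy library, but the replicates were far apart in both groups. The means were 3.67 ± 0.865 FPKM at 30 Gy and 1.28 ± 0.293 FPKM at 0 Gy (SD, n = 2 each), and only 134 and 187 reads at 30 Gy and 71 and 50 reads at 0 Gy stood behind them. The log2 change was 1.03 ± 0.18 (SE; limma adjusted p = 0.0214), and the added 1 FPKM shrinks it: limma's voom on the recovered reads gave 1.51 ± 0.28 (SE; adjusted p = 0.000923). It did not pass in a fit of all genes above 0 (adjusted p = 0.110) or without the second 30 Gy library (adjusted p = 0.0748), and its adjusted p ran from 0.000923 to 0.141 over 13 alternatives.

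*SERPINE2* (ENSG00000135919), protease nexin-1, lies on the minus strand at chr2:223975112-224039319. Its FPKM was 12.7 and 13.2 at 30 Gy and 11.8 and 12.7 at 0 Gy. The groups overlapped, since the second 0 Gy library (12.664) was just above the first 30 Gy library (12.66). The means were 12.9 ± 0.346 FPKM at 30 Gy and 12.2 ± 0.588 FPKM at 0 Gy (SD, n = 2 each), from 1797 and 1860 reads at 30 Gy and 1831 and 1914 reads at 0 Gy. The log2 change was 0.07 with a 95% interval of -0.11 to 0.25 (limma adjusted p = 0.510). With 2 libraries per group the fit does not tell apart the changes inside that interval. The interval lies below those of the 4 genes that rose, the lowest of which starts at 0.57 (*SERPINB2*).

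Leaving out either of the 0 Gy libraries, so that the lone one is assumed to vary like the 30 Gy group, left 0 of the 13379 genes past the threshold. limma then had 3422 and 3460 genes at an unadjusted p under 0.05. The log2 changes of the 4 genes that rose stayed between 0.90 and 1.42 in those fits.

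**Figure D2:**
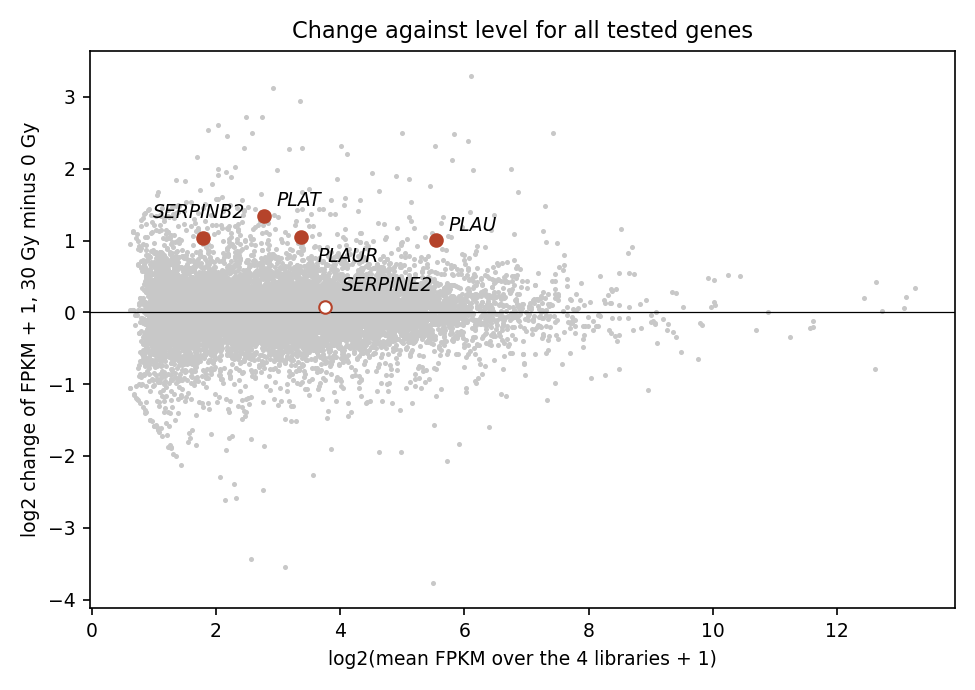
Log2 change (30 Gy minus 0 Gy, vertical axis) against the log2 of mean FPKM + 1 over the 4 libraries (horizontal axis) for the 13379 tested genes, with the 5 genes in red, filled where they passed. PLAU, PLAT, PLAUR and SERPINB2 lie between 1.01 and 1.33 at different levels, and SERPINE2 lies at 0.07 inside the bulk of genes.

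The order of the 5 genes by level differed little between groups. At 30 Gy *PLAU* led, *SERPINE2* and *PLAUR* overlapped each other, and *PLAT* and *SERPINB2* followed, each below the one before by more than its replicates' spread. At 0 Gy the order was *PLAU*, *SERPINE2*, *PLAUR*, *PLAT* and *SERPINB2*, with no overlap between neighbours. The 5 summed to 98.5 and 101 FPKM at 30 Gy, against 51.4 and 53.0 FPKM at 0 Gy. *PLAU* made up 62.3% and 61.2% of that sum at 30 Gy and 56.6% and 58.5% at 0 Gy, while *SERPINE2* made up 12.9% and 13.0% at 30 Gy and 23.0% and 23.9% at 0 Gy.

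**Figure D3:**
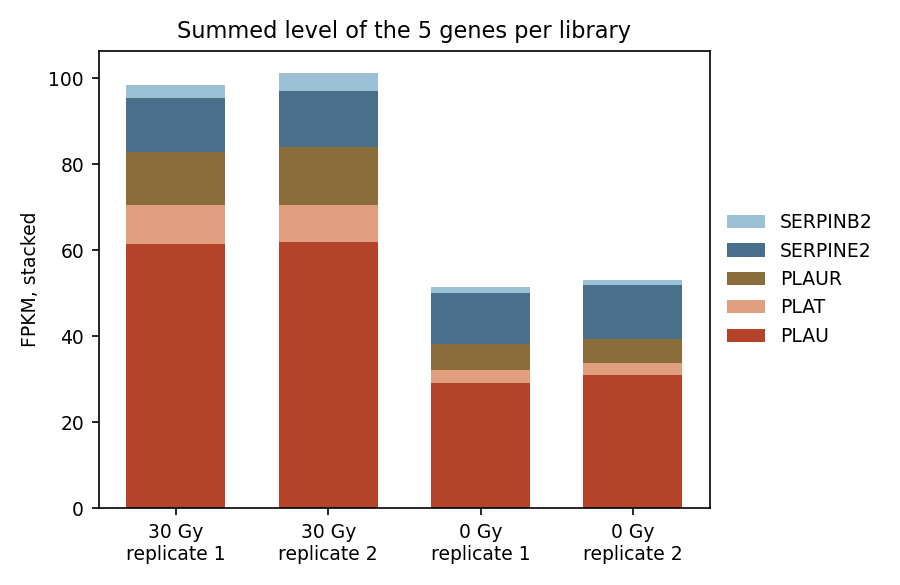
Summed FPKM of the 5 genes in each library, stacked by gene from PLAU at the bottom to SERPINB2 at the top, with the 30 Gy libraries on the left. The columns reach 98.5 and 101 FPKM at 30 Gy and 51.4 and 53.0 FPKM at 0 Gy, and the SERPINE2 segment is of nearly the same height in the 4 columns.

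Ratios within a library do not depend on its scaling. The ratio of *PLAU* to *SERPINE2* FPKM was 4.84 and 4.71 at 30 Gy, against 2.46 and 2.45 at 0 Gy. That of *PLAT* to *SERPINE2* was 0.724 and 0.641 at 30 Gy, against 0.264 and 0.210 at 0 Gy. Both ratios were higher in each 30 Gy library than in each 0 Gy library. *PLAU* exceeded *SERPINB2* 20.1-fold and 14.5-fold at 30 Gy and 19.6-fold and 28.95-fold at 0 Gy, and here the groups overlapped. The ratios are given as values and were not tested.

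The 5 genes lie on 5 chromosomes. Of the 86 other tested genes within 1 Mb of them, 6 rose (6.98%) and 4 fell (4.65%), beside 10.8% and 9.06% of all tested genes. Around *PLAU* 0 of 26 other tested genes passed in either direction. Around *PLAT* 2 of 19 rose (GINS4 and SFRP1) and 1 fell (RNF170), and around *PLAUR* 2 of 28 rose (KCNN4 and ETHE1) and 1 fell (ZNF428). The windows of *SERPINB2* and *SERPINE2* held few tested genes: of 7 around *SERPINB2* 1 rose, the related inhibitor *SERPINB8*, and 1 fell (VPS4B), and of 6 around *SERPINE2* 1 rose (SCG2) and 1 fell (DOCK10). Genes named here for the small counts were chosen after their values were seen.

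*PLAU* and *SERPINB2* each share sequence with an annotated neighbour. In GENCODE v29, 916 exonic bases of *PLAU* also lie in exons of C10orf55 on the opposite strand, which had 24 and 12 reads at 30 Gy and 9 and 7 reads at 0 Gy. *SERPINB2* shares 547 exonic bases with *SERPINB10* on the same strand, which had 1 and 4 reads at 30 Gy and 1 and 0 reads at 0 Gy. Whether the authors' counting used strand, and what it did with reads in shared exons, is not given in the sources used here. The neighbours' own counts were small beside those of *PLAU* and *SERPINB2*. Those counts depend on the same unknown handling, so they set no limit on what the shared exons added or removed.

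The promoter sequences next to the transcription start are shown for 3 genes that rose and for *SERPINE2*, which did not pass; no window of *PLAT*, which also rose, is shown. Each window has 300 bases around the start, 50 of them after it, and comes from RefSeq (GRCh38.p14). RefSeq gives 2 starts each for *PLAU* and *SERPINE2*, and gene-level values cannot say which one was used. All are printed 5′ to 3′ on the gene's own strand, with capitals for matches to any of 4 motifs searched on both strands. The AP-1 motif was TGANTCA. The TATA box was TATAAA. The SMAD element was CAGACA. The TEAD element was GGAATG, and no match overlapped another.
PLAUR, chr19:43670120-43670419, minus strand: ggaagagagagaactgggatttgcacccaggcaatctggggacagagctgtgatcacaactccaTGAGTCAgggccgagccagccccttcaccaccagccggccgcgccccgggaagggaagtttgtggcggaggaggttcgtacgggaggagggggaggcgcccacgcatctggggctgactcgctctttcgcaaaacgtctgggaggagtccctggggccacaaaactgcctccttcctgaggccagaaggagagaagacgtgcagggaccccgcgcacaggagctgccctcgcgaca
SERPINB2, chr18:63887455-63887754, plus strand: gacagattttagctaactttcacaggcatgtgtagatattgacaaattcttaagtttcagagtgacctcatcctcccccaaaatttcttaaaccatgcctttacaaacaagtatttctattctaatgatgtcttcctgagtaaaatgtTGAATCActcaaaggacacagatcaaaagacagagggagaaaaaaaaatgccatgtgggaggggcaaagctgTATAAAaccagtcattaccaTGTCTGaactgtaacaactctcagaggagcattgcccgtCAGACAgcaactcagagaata
PLAU, chr10:73910360-73910659, plus strand, upstream start: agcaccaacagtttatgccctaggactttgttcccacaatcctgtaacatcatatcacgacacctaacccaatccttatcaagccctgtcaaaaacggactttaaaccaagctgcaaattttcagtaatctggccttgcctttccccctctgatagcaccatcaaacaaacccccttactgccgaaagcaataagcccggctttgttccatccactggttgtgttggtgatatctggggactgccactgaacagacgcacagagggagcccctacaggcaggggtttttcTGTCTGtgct
SERPINE2, chr2:224038591-224038890, minus strand, upstream start: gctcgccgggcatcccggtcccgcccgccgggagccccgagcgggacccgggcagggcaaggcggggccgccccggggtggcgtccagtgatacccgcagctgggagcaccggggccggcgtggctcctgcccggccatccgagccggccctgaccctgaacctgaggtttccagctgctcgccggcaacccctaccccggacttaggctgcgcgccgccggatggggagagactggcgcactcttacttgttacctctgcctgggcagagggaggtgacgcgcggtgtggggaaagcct

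*PLAUR* had 1 AP-1 match, with its first base at position -186 from the start. *SERPINB2* had 1 AP-1 match at position -102, a TATA box at position -30, and 2 SMAD element matches, at -10 (on the other strand) and 30. The upstream start of *PLAU* had 1 SMAD element match at 41, also on the other strand. The downstream start of *PLAU* and both starts of *SERPINE2* held none of the 4 motifs in these windows. GC content was 64.0% for *PLAUR*, 39.0% for *SERPINB2*, 48.7% and 70.0% for the upstream and downstream starts of *PLAU*, and 73.7% and 54.0% for those of *SERPINE2*. Of 35116 promoter windows of this length, 7.71% held the AP-1 motif, 11.5% the TATA box, 16.9% the SMAD element and 14.0% the TEAD element. A match is a description of letters, and no binding was measured.

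Profiles over the 4 libraries were compared by the Euclidean distance of centred log2(FPKM + 1) values, among 7077 protein-coding tested genes with a mean of at least 5 FPKM. The nearest to *PLAU* were MYO10 (distance 0.0455), LTBP1 (0.0598) and LAMB1 (0.0601). LTBP1, which binds latent TGF-beta, averaged 34.3 ± 1.08 FPKM at 30 Gy and 16.4 ± 0.458 FPKM at 0 Gy (SD, n = 2 each). The nearest to *PLAUR* were DCBLD1 (0.0430), CTHRC1 (0.0518) and PORCN (0.0681), and the nearest to *PLAT* were PDLIM7 (0.0795), S100A16 (0.0814) and AFAP1L2 (0.114). For *SERPINB2* they were TMEM156 (0.166), the matrix protease gene MMP7 (0.166) and CTHRC1 (0.185). For *SERPINE2* they were ACTR2 (0.0131), XPO1 (0.0146) and BNIP2 (0.0171), with log2 changes of 0.06 to 0.08. Among the 5 themselves *PLAU* and *PLAUR* were the closest pair (0.136), and *PLAT* and *SERPINE2* the farthest apart (1.28). The distance takes in the change between groups as well as the replicates, so it is not separate from the log2 changes above.

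Plasminogen itself, encoded by *PLG* and made mainly by the liver, had 0 reads in every library, which allows at most 0.0296 FPKM. The other genes around the 5 were gathered in 8 lists of 76 genes. Of the 43 that were tested, 15 rose (34.9%) and 8 fell (18.6%), beside the 10.8% and 9.06% of all tested genes. The lists were drawn up with earlier results of these data known and are no independent sample. All 23 are named below. Of them 12 no longer passed when the first or the second 30 Gy library was left out: *S100A10*, *ENO1*, *IGF2R*, *LRP8*, *LRPAP1*, *ITGB5*, *EGFR*, *SERPINB8*, *SERPINB9*, *TFPI2*, *F3* and *CD59*. Without the first or the second 0 Gy library 0 of the 23 passed, and in all 4 of these fits the 23 kept their sign. Among 7 plasma-type components and inhibitors, *PLG* included, *SERPINI1* (neuroserpin, an inhibitor of tissue-type activator) alone was tested, with 3.37 and 4.13 FPKM at 30 Gy and 2.83 and 2.80 FPKM at 0 Gy, and it did not pass (limma adjusted p = 0.111).

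**Figure D4:**
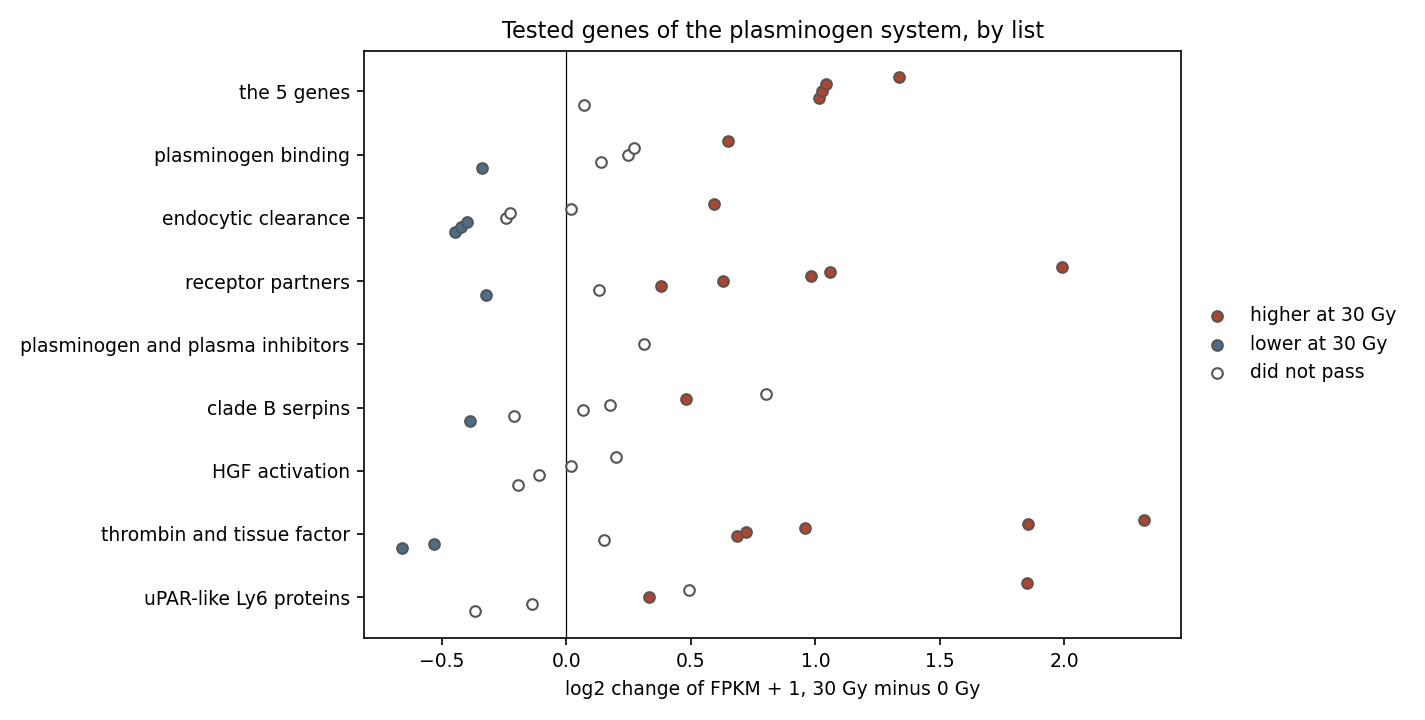
Log2 change (30 Gy minus 0 Gy, horizontal axis) of every tested gene in each list, 1 point per gene, with the 5 genes in the top row. Red points rose and blue points fell at an adjusted p under 0.05, open points did not pass; the receptor partners and the thrombin and tissue factor list hold 5 red points each.

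Of 7 tested cell surface partners of the urokinase receptor, largely integrins that work with it in adhesion, 5 rose and 1 fell. The median log2 change was 0.63. Of all tested genes 10.8% rose and 9.06% fell. This list and those below were drawn up with earlier results of these data known. *ITGB3*, the beta chain of the vitronectin receptor, had 5.52 and 5.52 FPKM at 30 Gy, against 0.562 and 0.723 FPKM at 0 Gy (limma adjusted p = 0.00179). Its log2 change of 1.99 is shrunk by the added 1 FPKM, and voom gave 3.10. Its alpha chain *ITGAV* averaged 70.7 ± 3.17 FPKM at 30 Gy and 33.5 ± 2.91 FPKM at 0 Gy (SD, n = 2 each). *ITGA5* was 2.06-fold and *ITGB1* 1.55-fold higher at 30 Gy, and these chains form a fibronectin receptor. *ITGB5* also rose, by 0.38 on the log2 scale (limma adjusted p = 0.0161), and *EGFR* fell by 0.32 (limma adjusted p = 0.0435, and 0.00187 to 0.179 over the alternatives). *VTN*, which encodes vitronectin, a ligand of the receptor, was at most 0.077 FPKM in any library.

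Genes for thrombin and tissue factor signalling, which SERPINE2 touches through thrombin, went both ways. Of 8 tested genes 5 rose and 2 fell, beside 10.8% and 9.06% of all tested genes, with a median log2 change of 0.70. *F2RL1*, the protease-activated receptor cut by trypsin-like enzymes, had 76.4 and 74.7 FPKM at 30 Gy, against 13.3 and 15.5 FPKM at 0 Gy (limma adjusted p = 0.00099). *F2R*, the main thrombin receptor, averaged 23.3 ± 1.74 FPKM at 30 Gy and 5.73 ± 0.692 FPKM at 0 Gy (SD, n = 2 each), and *F2RL2* rose 1.70-fold. These 3 receptor genes are neighbours on chromosome 5. *F2*, which encodes thrombin itself, was not tested, with 1 and 4 reads at 30 Gy and 1 and 5 reads at 0 Gy. *TFPI2*, an inhibitor of plasmin and related proteases, rose 2.08-fold, *PROCR*, which encodes the endothelial protein C receptor, rose by 0.69, and *THBD* (thrombomodulin) fell by 0.66 and *F3* (tissue factor) by 0.53 on the log2 scale.

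Another list held receptors that take up activator and inhibitor complexes, or relatives of such receptors. Of 7 tested clearance genes 1 rose and 3 fell, beside 10.8% and 9.06% of all tested genes, with a median log2 change of -0.24. *IGF2R*, a receptor that binds the urokinase receptor, averaged 22.3 ± 0.214 FPKM at 30 Gy and 30.8 ± 1.80 FPKM at 0 Gy (SD, n = 2 each). *LRP8* fell by 0.42 and *LRPAP1*, a chaperone of this receptor family, fell by 0.40 on the log2 scale. *LRP1*, the main uptake receptor of such complexes, had 3.09 and 2.89 FPKM at 30 Gy and 2.93 and 2.94 FPKM at 0 Gy and did not pass. *MRC2*, a collagen receptor that associates with the urokinase receptor, rose 1.52-fold to 79.0 ± 6.51 FPKM at 30 Gy, against 52.0 ± 0.471 FPKM at 0 Gy (SD, n = 2 each). In a fit of all genes above 0, *IGF2R*, *LRP8*, *LRPAP1* and *MRC2* did not pass (limma adjusted p = 0.062, 0.089, 0.0789 and 0.0604). This loss was not particular to the clearance genes, and only 10 of the 23 called list genes still passed in that fit. From the other lists *S100A10*, *ENO1*, *ITGB5*, *EGFR*, *SERPINB8*, *SERPINB9*, *TFPI2*, *F3* and *CD59* did not pass in it either.

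Of 5 genes whose proteins hold plasminogen at the cell surface 1 rose and 1 fell, beside 10.8% and 9.06% of all tested genes. *S100A10* rose to 132 and 147 FPKM at 30 Gy, against 97.4 and 80.3 FPKM at 0 Gy, and its partner *ANXA2* averaged 342 FPKM at 30 Gy and 288 FPKM at 0 Gy without passing (limma adjusted p = 0.0857). *ENO1*, a glycolytic enzyme that also binds plasminogen, fell by 0.34 on the log2 scale, and by 0.17 with no call under quantile normalization (adjusted p = 0.0652, against 0.0242 as reported). Of 6 other tested clade B serpins *SERPINB8* rose by 0.48 and *SERPINB9*, an inhibitor of granzyme B, fell by 0.39. Of 5 tested proteins of the receptor's fold family *CD59*, a complement inhibitor, rose by 0.33, and *LYPD1* rose by 1.85, with 121 and 109 reads at 30 Gy against 6 and 3 reads at 0 Gy. The added 1 FPKM shrinks the change of *LYPD1*, which was 3.91 with 0.1 FPKM added and 4.70 by voom. Of 4 tested genes of hepatocyte growth factor activation, a further route of urokinase-like proteases, limma called 0. In this list 1 gene (*MET*, the receptor) had an unadjusted p under 0.05, as had 5049 of all 13379 tested genes.

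**Figure D5:**
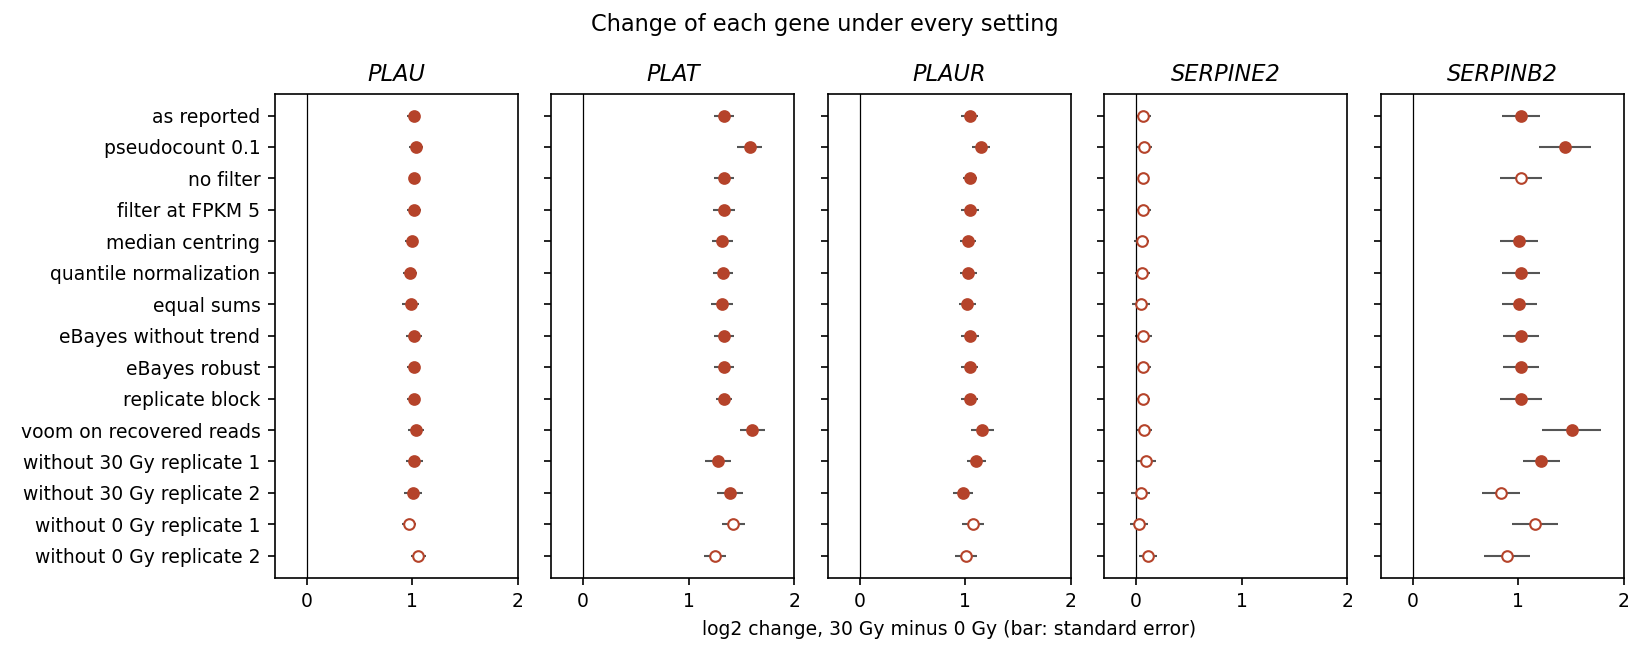
Log2 change (30 Gy minus 0 Gy, horizontal axis) with its standard error for each gene under every setting (rows), filled where the adjusted p was under 0.05. PLAU, PLAT and PLAUR are open only without a 0 Gy library, SERPINB2 is open in 4 rows and has no point at the filter of 5 FPKM, and SERPINE2 is open throughout.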

How the data were processed

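The authors deposited 1 table of FPKM values per gene for the 4 libraries, with gene positions and lengths. Positions are on hg38, per the submitters' processing notes. No source used here names the aligner, the counting tool or the annotation. Multiplied by gene length, 100% of the FPKM values above 0 were whole multiples of 1 step per library (tolerance 0.001), which gave reads for depth, floors and voom. Floors of 3 reads cover counting error only, and limma's intervals rest on the spread between libraries.

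Genes with at least 1 FPKM in at least 2 libraries (13379 of 58735) were fitted with limma 3.58.1 in R 4.3.3 (lmFit, eBayes with trend, no covariate) on log2(FPKM + 1), 30 Gy minus 0 Gy, with 2 residual and 2.98 prior degrees of freedom. Fold differences are ratios of mean FPKM. The code was checked on simulated reads. Alternatives are in the closing section. Named genes were the 5 members, up to 4 called genes per list by size of change, the 3 nearest profiles of each member, and those marked otherwise. The list genes PLG, SERPINI1, VTN, F2, LRP1, ANXA2 and MET were not called or not tested and are named outside that rule. ITGB5, EGFR, PROCR, THBD and F3 complete the counts of called list genes and were chosen after their values were seen. Members and lists were chosen with earlier results of these data known. Sequences came from RefSeq, transcripts from GENCODE v29. Some genes of this pathway are not reported here.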

Additional observations from a re-analysis of the deposited data

How the results depend on the processing

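Every alternative kept the sign of all 5 genes. Over all 14 alternatives (13 for SERPINB2, which a filter at 5 FPKM removed) PLAU, PLAT and PLAUR passed in 12, SERPINB2 in 9 and SERPINE2 in 0. When each library was left out in turn, the log2 change was 0.97 to 1.06 for PLAU, 1.25 to 1.42 for PLAT, 0.98 to 1.11 for PLAUR and 0.84 to 1.22 for SERPINB2; 0 to 4 of the 5 genes were called. Without the second 30 Gy library SERPINB2 was lost. Over all genes 0 to 484 were then called higher and 0 to 414 lower, with 0 in both directions without either 0 Gy library, and on the lists 0 to 10 genes rose and 0 to 1 fell. With every gene above 0 tested, 352 genes were called higher and 252 lower, 9 list genes rose and 1 fell, and SERPINB2 kept its change of 1.03 without passing. voom called 2144 higher and 2037 lower. With the replicate number as a block 4 list genes fell, against 8, calls over all genes numbered 1926 against 2654, and the same 4 of the 5 genes passed. Same-numbered libraries did not deviate together (correlation -0.0263 over 13379 genes), so the numbers are not taken as pairs. The direction of the 23 called list genes was kept in every alternative that gave a value. EGFR, ENO1, LRP8, SERPINB8 and SERPINB9 did not pass with the block. Nor did EGFR and ENO1 pass under quantile normalization, EGFR and SERPINB8 with equal library sums, or EGFR and SERPINB9 without the trend. The planned edgeR and DESeq2 fits were not run, because the deposited values are FPKM and the reads had to be recovered through gene length. On those recovered reads voom was run instead. Alternatives for list genes were added after the data were seen. With 2 libraries per group and 50 to 187 reads, SERPINB2 had the least precise value.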
